A study of Mus musculus with 12 samples.

Results

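The genes described here encode the vacuolar proton pump of lysosomes and the cathepsins that work in the acid it makes, and they were read from a transcript abundance table of mouse choroid plexus. They were chosen by symbol: every row named as a V0 or V1 subunit of the pump (Atp6v0, Atp6v1), as one of its accessory subunits (Atp6ap1, Atp6ap1l, Atp6ap2) or as a cathepsin (Cts and one letter), together with Lamp1, Lamp2, Mcoln1 and Tfeb. Symbols of pseudogenes were dropped. The rule gave 47 of the 52459 symbols, namely 13 V1 subunits, 9 V0 subunits, 3 accessory subunits, 18 cathepsins and the 4 further genes. Choroid plexus, the tissue of the brain ventricles whose epithelium secretes cerebrospinal fluid, was dissected from B6 mice at 4 ages: the embryo (E12.5), the newborn (P0), the pup of postnatal day 14 (P14) and the adult of 6 months (A6m). Each age had 3 libraries, with no treatment or introduced allele named in the labels for any of them. Sex, ventricle and batch are not given in the sources used here.

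The vacuolar ATPase pumps protons into lysosomes, endosomes and secretory vesicles. Its V1 sector hydrolyses ATP in the cytosol, its membrane-bound V0 sector carries the protons across, and the accessory subunits take part in its assembly. The pump also sits in the plasma membrane of some acid-secreting epithelia, where tissue-specific subunit isoforms take the place of the common ones. Cathepsins are proteases of the acidic lumen, most of them cysteine proteases, with Ctsd an aspartic protease and Ctsa a serine carboxypeptidase that also protects other lysosomal enzymes. Lamp1 and Lamp2 are the abundant glycoproteins of the lysosomal membrane, Mcoln1 is its calcium release channel, and Tfeb is a transcription factor that binds E-box elements near the start of many lysosomal genes. Transcript levels say nothing direct of pump activity or protease activity.

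Promoter sequences are shown because the palindromic element bound by the Tfeb family can be read from sequence, which the choice by symbol did not use. The element is known from lysosomal genes such as these, so the shares below describe the promoters and test nothing. RefSeq promoter windows on GRCm38.p6, from 250 bases before to 50 bases after a start, were found for 36 of the 47 genes. Both strands were searched for TCACGTGA and for its core CACGTG, so that every match to the former is also a match to the latter. TCACGTGA was held by 6 of the 36 genes (16.7%), against 1.12% of the 27025 genes with an entry, and CACGTG by 10 of them (27.8%), against 8.09%. The 6 genes are printed with 60 bases on each side of the outermost match where the window allows, 5′ to 3′ on the gene's own strand, with TCACGTGA in capitals. The windows lie at chr2:164833700-164833822 (plus strand) for Ctsa, chr7:142387859-142387986 (minus) for Ctsd, chr8:3500413-3500540 (plus) for Mcoln1, chr8:105566015-105566128 (minus) for Atp6v0d1, chr16:44139324-44139451 (minus) for Atp6v1a and chr17:26676338-26676445 (plus) for Atp6v0e.
Ctsa: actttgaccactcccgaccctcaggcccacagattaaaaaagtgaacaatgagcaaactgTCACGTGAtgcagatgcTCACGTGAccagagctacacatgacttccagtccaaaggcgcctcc
Ctsd: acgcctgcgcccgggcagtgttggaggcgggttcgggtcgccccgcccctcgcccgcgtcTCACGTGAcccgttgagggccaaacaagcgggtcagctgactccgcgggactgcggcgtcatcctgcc
Mcoln1: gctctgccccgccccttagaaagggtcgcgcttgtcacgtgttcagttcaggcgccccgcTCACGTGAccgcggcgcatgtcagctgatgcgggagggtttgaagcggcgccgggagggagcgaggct
Atp6v0d1: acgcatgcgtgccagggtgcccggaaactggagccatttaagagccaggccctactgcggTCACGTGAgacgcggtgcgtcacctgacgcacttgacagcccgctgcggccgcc
Atp6v1a: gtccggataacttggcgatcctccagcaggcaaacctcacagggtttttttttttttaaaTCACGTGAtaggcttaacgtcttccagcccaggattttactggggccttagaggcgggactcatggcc
Atp6v0e: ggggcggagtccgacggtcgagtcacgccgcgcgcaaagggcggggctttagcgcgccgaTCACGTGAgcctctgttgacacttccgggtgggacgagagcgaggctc
Ctsa held 2 copies, at its downstream RefSeq start, and the others 1 copy each. The match began 132 bases before the start in Atp6v1a, 99 before in Ctsd, 46 before in Mcoln1 and 4 before in Atp6v0d1, and at base 3 after it in Atp6v0e. The core alone was also found in Atp6v0b, Lamp1, Ctsl and Ctsf. A match is a description of these letters and not a site of binding, and the windows of Tfeb itself, Lamp2, Atp6ap1 and Atp6ap2 held neither motif.

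Values are TPM, which adjust for transcript length and set each library to one sum. Depth per library cannot be read from TPM, so no counting error is given. Errors are SD over 3 libraries. Nothing in the labels says more of the replicates than that they are separate samples, so that p-values measure the spread between these samples. Testing required 3 or more of the 12 libraries to reach a TPM of 1, which held for 17422 symbols and for 34 of the 47 genes. Differences are on the log2(TPM + 1) scale, which understates the change of low genes, and every adjusted p comes from limma with Benjamini-Hochberg adjustment over the 17422 symbols. Called means an adjusted p under 0.05, and rose and fell are used only of called genes.

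The scale between libraries matters in this series. Ttr, the transcript of the secreted carrier transthyretin, took 13.7% to 16.9% of TPM in the libraries from P0 to A6m, and its part in the difference between scales was not tested. Over all tested genes, the median difference as deposited was -0.27 for P0 less E12.5, -0.41 for P14 less P0, -0.04 for A6m less P14 and -0.71 for A6m less E12.5. After median-of-ratios scaling these medians ranged from -0.02 to 0.00. Both scales are therefore given for each group of genes. Choroid plexus epithelium markers summed to 12606 to 23316 TPM at E12.5 and to 142709 to 172902 TPM at the later ages, sums that are nearly all Ttr. The epithelial transcription factor Otx2, of the same list, moved far less, with 463 ± 99.95 TPM at E12.5 and 401 ± 12.6 TPM at A6m. Most of the list did rise: into P0, 9 of its 10 genes rose and 0 fell (10 and 0 scaled). Of all tested genes, 18.6% rose and 43.7% fell in that step (29.0% and 31.0% scaled). Over the whole span 6 of the 10 were higher and 0 lower, against 15.2% and 62.0% of all tested genes. E12.5 replicate 1 stood apart, with 9.31% of its TPM in Mir6236, and without it 21 of the 34 genes were called higher at P0 than at E12.5, as with it. Xist ranged from 148 to 155 TPM at A6m, stood at 139 and 89.5 TPM in E12.5 replicates 1 and 3, and did not exceed 0.809 TPM in the others. The Y-linked Ddx3y was at 9.26 to 54.4 TPM at E12.5, at 80.1 to 117 TPM at P0 and P14 and at 0.122 to 0.366 TPM at A6m. The step from P14 to A6m thus also set libraries without Xist against libraries with it, and the 2 differences cannot be told apart. The E12.5 libraries were mixed in Xist, so the comparisons of P0 and of A6m with E12.5 were not balanced in it either. Of the 47 genes, 3 lie on the X chromosome: Atp6ap1, Atp6ap2 and Lamp2.

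Of the 34 tested genes, 31 differed over the 4 ages by the moderated F-test, where 85.1% of all tested genes did (79.8% after scaling). The 3 that did not pass were Atp6v0a2 (adjusted p = 0.0798), Atp6v1g2 (0.779) and Lamp1 (0.0539). The 47 genes together took 0.299% ± 0.0371 of TPM at E12.5 and 0.525% ± 0.00868, 0.480% ± 0.0177 and 0.527% ± 0.0153 at the later ages in order. Pump genes and cathepsins divided this share differently with age. Cathepsins summed to 1007 ± 142, 2426 ± 73.9, 1933 ± 82.1 and 1894 ± 60.4 TPM, with the ages in order from E12.5 to A6m. The pump summed to 1509.6 ± 181 TPM, 1989 ± 12.2, 2089 ± 78.6 and 2600 ± 88.8 in the same order. In tissue RNA, more cells of a type and more RNA per cell cannot be told apart, which holds for every level given here.

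The 13 genes that stayed under the limit for testing are mostly isoforms and proteases of other tissues. Ctsj, Ctsm and Ctsr, which belong to the cathepsins of rodent placenta, were listed at 0 in all 12 libraries, and Ctsq, of the same group, reached 0.0885 TPM. Among the leukocyte proteases, Ctsg reached 0.406 TPM in P14 replicate 3, Ctsw 0.466 TPM and Ctse 0.704 TPM. The pump isoforms of kidney, bone and testis were also low: Atp6v1b1 reached 0.131 TPM, Atp6v0a4 0.690, Atp6v0d2 0.401, Atp6v1g3 0.122 and Atp6v1e2 0.200. Atp6v1c2 came nearest to the limit, with 1.47 and 1.24 TPM in A6m replicates 1 and 3 and 0.533 in A6m replicate 2.

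Where a subunit has several isoforms, one gene carried nearly all of its TPM at every age, apart from subunits a and G. Atp6v1b2 took at least 99.8% of the summed TPM of both B isoforms in every library, Atp6v1e1 at least 99.8% of E, Atp6v0d1 at least 99.5% of d and Atp6v1c1 at least 97.5% of C. Subunit a, the V0 subunit that anchors the pump to particular membranes, was mixed. Its isoform Atp6v0a1 had 50.1% ± 1.92 of the a transcripts at E12.5 and 68.6% ± 3.78 at P0, with 65.9% ± 1.92 and 61.8% ± 0.426 thereafter. Tcirg1, the a isoform of osteoclasts and immune cells, which the choice by symbol does not include, had 24.4% ± 1.86, 8.97% ± 1.63, 7.45% ± 1.57 and 8.44% ± 1.95. The ranges of Tcirg1 shares at E12.5 (22.7% to 26.4%) and at the later ages (5.79% to 10.7%) did not overlap. Osteoclast markers, of which 1 of 4 was high enough to be tested, summed to 32.0 to 44.6 TPM at E12.5 and to 3.44 to 5.56 TPM at P0. That sum was nearly all Acp5, since Ocstamp, Dcstamp and Calcr did not exceed 0.441 TPM in any library, and its part in the Tcirg1 share was not tested. Subunit G was mostly Atp6v1g1, with the neuronal isoform Atp6v1g2 at 11.1% ± 2.37, 7.53% ± 1.36, 8.69% ± 0.872 and 7.54% ± 1.10. Neuron markers summed to 15.5 to 97.7, 17.7 to 30.9, 21.5 to 39.2 and 15.3 to 16.3 TPM in order of age. The list was not uniform: of 6 tested, 1 was higher and 3 lower at A6m than at E12.5 (2 and 3 scaled). Tubb3 alone had 51.0 TPM in E12.5 replicate 2, where the sum was highest. Syt1 went from 1.16 ± 0.759 TPM at E12.5 to 3.48 ± 0.209 TPM at A6m. The part of neurons in the Atp6v1g2 level was not tested. Atp6v0e2, the minor e isoform, went from 5.16% ± 0.740 at E12.5 to 1.12% ± 0.267 at P14, with 2.13% ± 0.193 in adults.

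**Figure D1:**
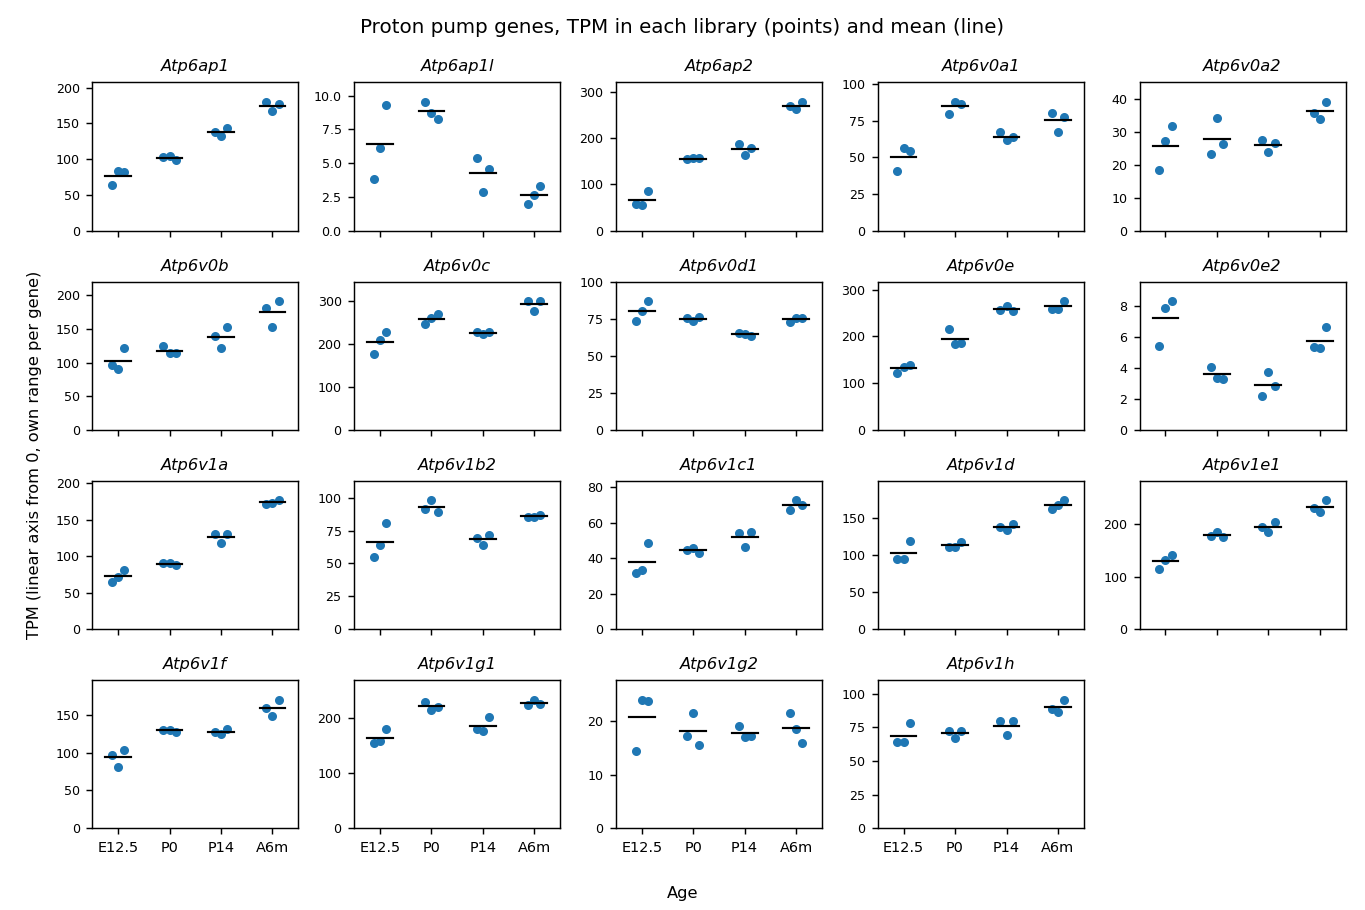
TPM of the 19 tested proton pump genes (y axis, linear from 0, own range per gene) in each library (points) at the 4 ages (x axis), with the mean as a line. Atp6ap2 and Atp6v1a are highest in the 3 A6m libraries, whereas Atp6v0d1 stays between 63.4 and 87.0 TPM in all 12.

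The first question of the design is what changed between the embryo and birth. The largest rises of the 34 genes were in cathepsins and Lamp2, with smaller rises in the pump. At P0, 21 of the 34 genes were higher than at E12.5 and 2 were lower, where 18.6% of all tested genes were called higher and 43.7% lower. After scaling the counts were 31 and 1, against 29.0% and 31.0%. The median difference of the 34 genes was 0.45 as deposited and 0.71 scaled. All 21 rises were called on both scales and in each fit that left out one of the 12 libraries.

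Cathepsins rose in 9 of 11 tested genes and none fell, and after scaling all 11 rose. Ctsl, a cysteine endopeptidase of the lysosome (chr13:64359337-64370890, minus strand), was at 98.4, 103 and 117 TPM in the E12.5 libraries and at 359, 380.1 and 371 TPM at P0. Every P0 library of Ctsl was thus far above every E12.5 library, a 3.49-fold difference of the means (log2 1.80, SE 0.0738, adjusted p = 1.48e-08). Ctsd (chr7:142375911-142388038, minus strand) went from 291, 349.7 and 431 TPM to 1152, 1254 and 1226 TPM and had the highest TPM of the 47 genes at every age (log2 1.78, SE 0.115, adjusted p = 3.03e-07). Ctsf, a cysteine protease with a cystatin-like domain in its precursor, had 12.4, 13.9 and 15.7 TPM at E12.5 and 43.3, 44.4 and 45.4 TPM at P0, with no overlap (log2 1.60, SE 0.0784, adjusted p = 4.42e-08). Ctsa rose 1.98-fold, from 79.5 ± 11 to 158 ± 2.46 TPM (log2 0.99, SE 0.0939, adjusted p = 5.05e-06). Ctsc, which activates granule serine proteases by removing dipeptides, was at 72.7 ± 12.9 and 138 ± 4.77 TPM, and Ctsh, an aminopeptidase, at 57.2 ± 9.73 and 98.6 ± 7.12 TPM. Ctsb, which was the second most abundant cathepsin at E12.5 with 184 ± 25 TPM, stood at 214 ± 11.5 TPM at P0 and was not called as deposited (log2 0.23, adjusted p = 0.0509), though it was after scaling (log2 0.51). Ctsk, best known as the collagenase of osteoclasts, was at 13.8 ± 1.99 and 15.3 ± 1.35 TPM and was not called as deposited.

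Gene models overlap some of these rows, and the submitters' counting setting for strand is not given in the sources used here. In GENCODE M21, 808 of the 2351 exon bases of Ctsd are shared with Gm49369 on the same strand, and 1742 of the 6489 of Ctsl with the antisense Gm47123. Ctsb shares 774 of 6051 exon bases with Fdft1, a gene of sterol synthesis on the opposite strand. The TPM of these rows may hold reads of the overlapping genes, and how many was not tested.

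In the pump, 10 of 19 tested genes rose into P0 and 1 fell, against 17 and 1 after scaling. By sector, 5 of 9 V1 genes, 3 of 7 V0 genes and 2 of 3 accessory genes rose. Atp6ap2, the accessory subunit that is also the prorenin receptor (chrX:12587801-12617049, plus strand), was at 56.8, 55.6 and 85.2 TPM at E12.5 and at 154, 157 and 156 TPM at P0. Its rise of 2.37-fold was the largest of the pump (log2 1.26, SE 0.133, adjusted p = 1.16e-05). Atp6v0a1 rose from 50.6 ± 8.44 to 84.9 ± 4.62 TPM (log2 0.75) and Atp6v0e from 132 ± 9.49 to 195 ± 17.0 TPM (log2 0.56). Atp6v1a, the catalytic A subunit, rose by less, from 72.4 ± 8.04 to 89.8 ± 1.39 TPM (log2 0.31). Atp6v0e2 fell on both scales, from 5.45, 7.90 and 8.35 TPM to 4.09, 3.38 and 3.32 TPM, without overlap (log2 -0.83, SE 0.177, adjusted p = 0.00183, and -0.56 after scaling).

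Among the membrane proteins, Lamp2 and Lamp1 parted. Lamp2 (chrX:38401357-38456454, minus strand) was at 184, 219 and 243 TPM at E12.5 and at 587, 610.2 and 604 TPM at P0 (log2 1.48, SE 0.0847, adjusted p = 1.23e-07). Lamp1 was at 199.7, 244 and 236 TPM and at 207, 212 and 216 TPM, so that its libraries overlapped and the gene was not called as deposited (log2 -0.09, adjusted p = 0.285), while scaling gave a small rise (log2 0.19). The ratio of Lamp2 to Lamp1 within a library, which no scaling between libraries can move, was 0.950 ± 0.0694 at E12.5 and 2.84 ± 0.0401, 2.89 ± 0.0102 and 2.79 ± 0.0448 at the later ages in order. Tfeb was at 2.56, 3.91 and 3.10 TPM at E12.5 and at 6.60, 7.74 and 6.99 TPM at P0, and this rise was called on both scales (log2 0.96, SE 0.156, adjusted p = 2.68e-04). Mcoln1 was the second gene called lower (log2 -0.33, adjusted p = 0.0468). The Mcoln1 libraries overlapped, with 22.4 to 28.0 TPM at E12.5 and 18.5 to 24.1 TPM at P0, the call was lost after scaling (log2 -0.05) and in 8 of 12 fits without one library. Without E12.5 replicate 1, 5 members were called lower in place of 2.

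**Figure D2:**
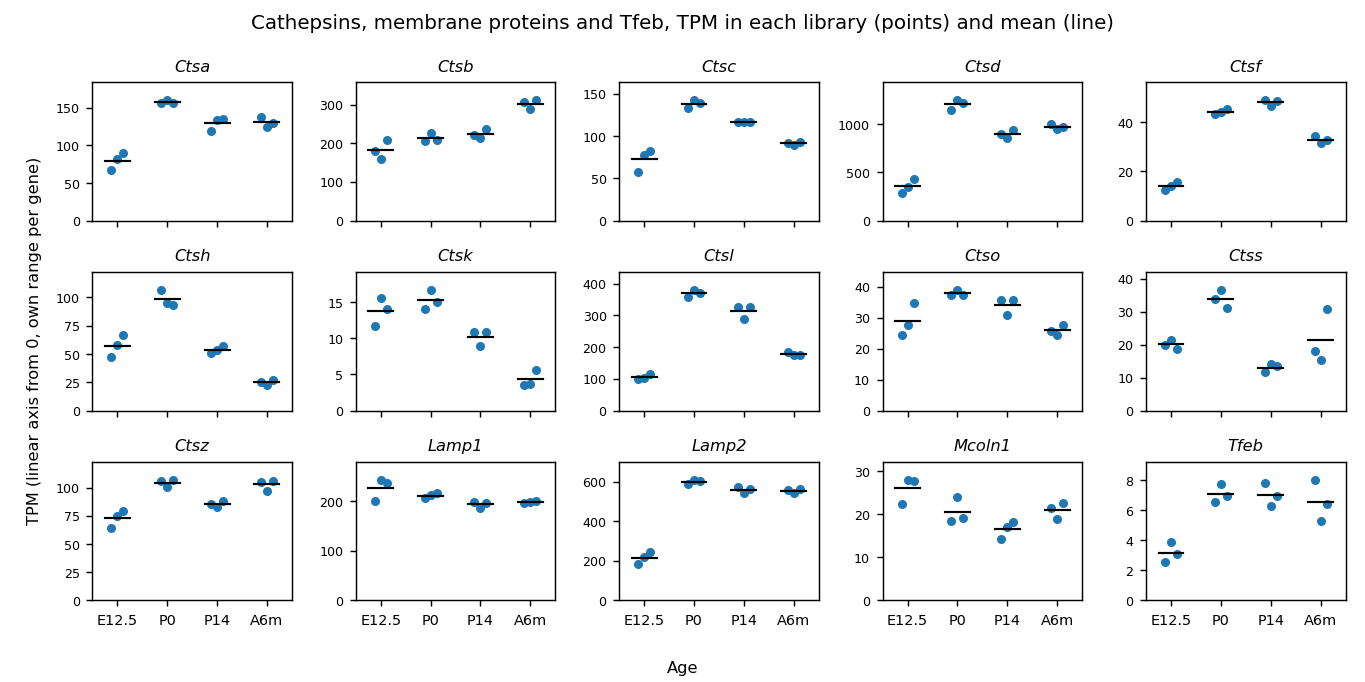
TPM of the 11 tested cathepsins, Lamp1, Lamp2, Mcoln1 and Tfeb (y axis, linear from 0, own range per gene) in each library (points) at the 4 ages (x axis), with the mean as a line. Ctsd, Ctsl, Ctsf and Lamp2 step up between E12.5 and P0 without overlap, and Ctsh and Ctsk are lowest in the A6m libraries.

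From birth to P14, the genes called higher as deposited were pump genes, and most of those called lower on that scale were cathepsins. After scaling, 7 cathepsins were instead called higher and 2 lower. The pump did not move as one: of its 19 tested genes, 4 rose and 5 fell as deposited, against 15 and 0 after scaling. Of the 34 genes, 4 rose and 12 fell as deposited, where 5.33% of all tested genes rose and 53.5% fell. After scaling 25 rose and 2 fell, against 22.7% and 19.8%, and 5 genes were called in opposite directions on the 2 scales. The median of the 34 genes was -0.14 as deposited and 0.37 scaled. The 4 rises, all in the pump, and the falls of Ctsh and Ctss were called on both scales.

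Atp6v1a (chr16:44085402-44139705, minus strand) was at 90.6, 90.5 and 88.2 TPM at P0 and at 130.5, 118 and 131 TPM at P14 (log2 0.49, SE 0.0765, adjusted p = 3.59e-04). Atp6ap1, the accessory subunit that guides assembly of the proton-carrying ring (chrX:74297097-74304721, plus strand), was at 103, 104 and 98.8 TPM and then at 139, 133 and 144 TPM (log2 0.44, SE 0.0925, adjusted p = 0.00213). Atp6v0e, a small V0 membrane subunit, was at 215, 184 and 187 TPM and then at 256, 265 and 255 TPM (log2 0.41, SE 0.0737, adjusted p = 8.41e-04). In each of these 3 genes every P14 library lay above every P0 library. Atp6v1d, a subunit of the central stalk, rose from 113 ± 4.29 to 138 ± 4.06 TPM (log2 0.28, adjusted p = 0.0160). The adjusted p of Atp6v1d became 0.0517 both without P0 replicate 2 and without P14 replicate 3.

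Atp6v1b2, the B subunit that forms the V1 head together with Atp6v1a, went the other way as deposited, with 91.8, 98.0 and 89.0 TPM at P0 and 69.3, 64.3 and 71.6 TPM at P14 (log2 -0.44, SE 0.112, adjusted p = 0.00648). After scaling it was not called (log2 0.07). The ratio of Atp6v1a to Atp6v1b2 within a library was 1.10 ± 0.0883 and 0.967 ± 0.0378 in the embryo and newborn, then 1.85 ± 0.0305 at P14 and 2.03 ± 0.0118 at A6m, and no library before P14 overlapped with one from P14 on. Both genes encode subunits that stand in equal number in the assembled V1 head. The accessory-like gene Atp6ap1l fell as deposited from 8.84 ± 0.670 to 4.27 ± 1.26 TPM (log2 -0.93, adjusted p = 0.0119), a call that was lost after scaling (log2 -0.49, adjusted p = 0.105) and without P14 replicate 2 (adjusted p = 0.0521).

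Of 11 tested cathepsins, none rose and 7 fell as deposited, while 7 rose and 2 fell after scaling. The shares of all tested genes that rose and fell were 5.33% and 53.5% as deposited and 22.7% and 19.8% after scaling. The deposited count of falls thus lies near the share of all tested genes. Ctss, a cysteine protease of antigen-presenting cells (chr3:95526786-95556403, plus strand), was at 34, 36.6 and 31.1 TPM at P0 and at 11.7, 14 and 13.4 TPM at P14 (log2 -1.32, SE 0.201, adjusted p = 3.00e-04, and -0.83 after scaling). Ctsh (chr9:90054152-90076089, plus strand) was at 107, 95.5 and 93.5 TPM and then at 50.7, 53.2 and 57.5 TPM (log2 -0.86, SE 0.120, adjusted p = 1.72e-04, and -0.35 after scaling). The falls of Ctsd (log2 -0.42), Ctsk (-0.53), Ctsa, Ctsl and Ctsz were calls on the deposited scale only, and scaled values were 0.09 for Ctsd, -0.06 for Ctsk and 0.28 for Ctsl. The call of Ctsk was also lost without P14 replicate 2 (adjusted p = 0.0542). Macrophage markers fell beside Ctss in this step: all 12 fell into P14 as deposited and 8 after scaling. Their sum was 146 to 171 TPM at P0 and 65.6 to 74.3 TPM at P14. In the step before, Ctss rose into P0 on both scales, whereas 0 of the 12 markers rose and 7 fell (5 after scaling). Of all tested genes, 18.6% rose and 43.7% fell in that step (29.0% and 31.0% scaled). Ctss over the macrophage marker Csf1r within a library was 0.693 ± 0.0433, 2.19 ± 0.0906, 1.86 ± 0.167 and 6.31 ± 1.17 in order of age. The part of macrophages in the fall of Ctss was not tested. Lamp1, Lamp2, Mcoln1 and Tfeb were not called in this step as deposited, and Tfeb was at 7.11 ± 0.580 and 7.02 ± 0.766 TPM.

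**Figure D3:**
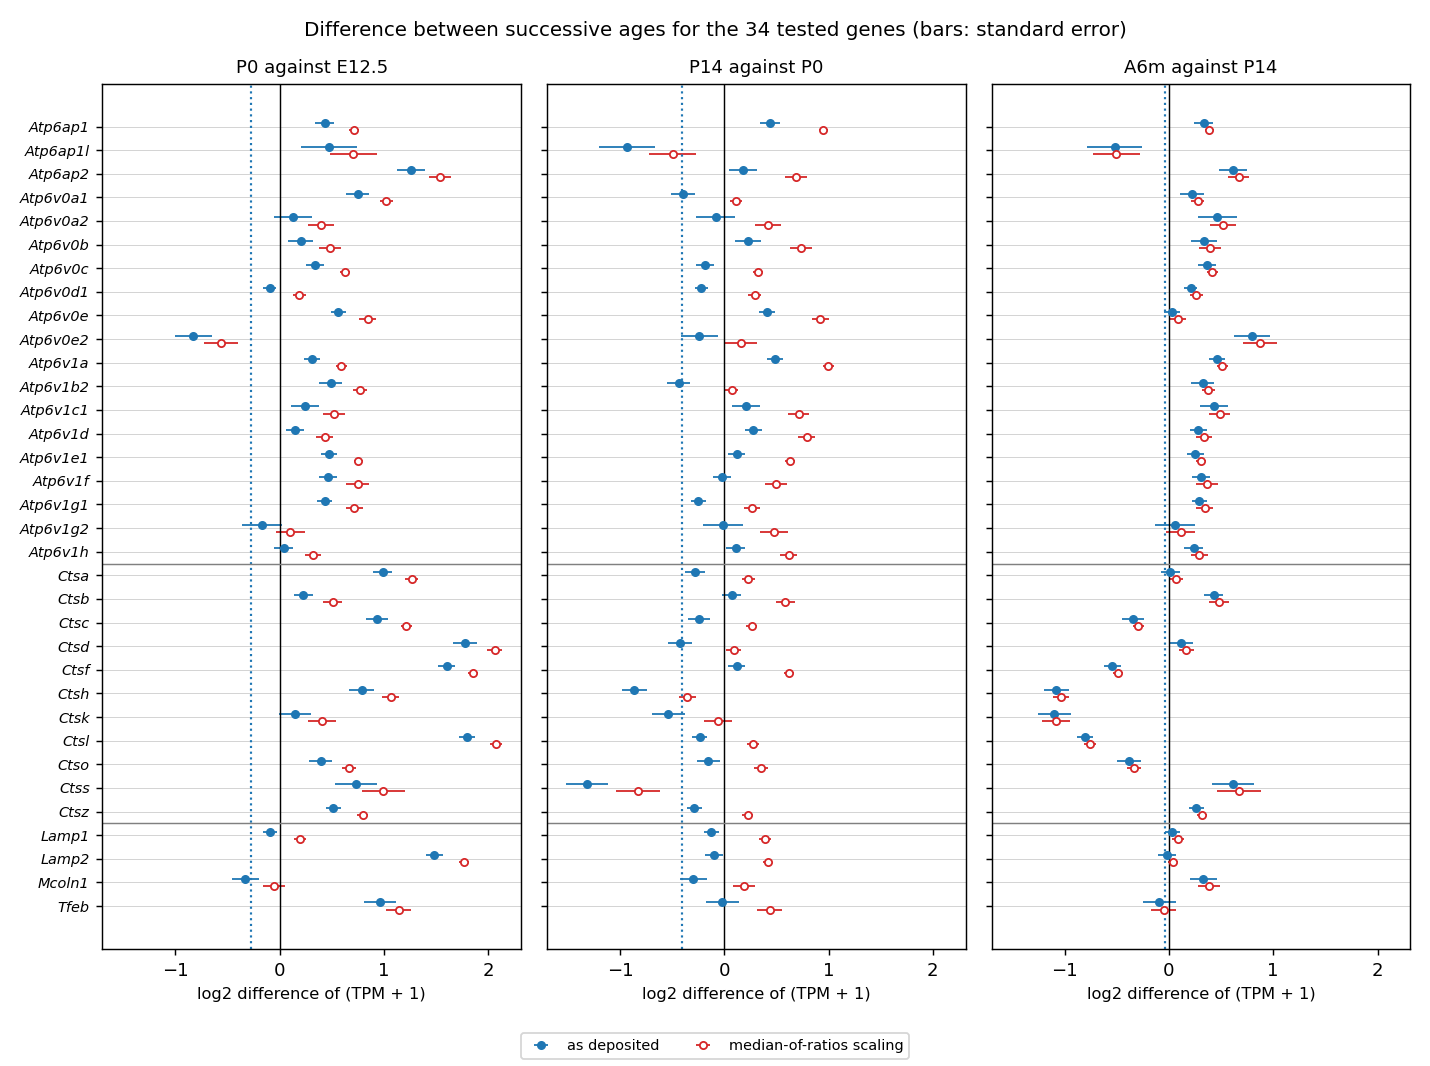
Difference on the log2(TPM + 1) scale (x axis) between successive ages for the 34 tested genes (y axis), as deposited (filled) and after median-of-ratios scaling (open), with standard errors as bars and the deposited median of all tested genes as a dotted line. Scaling moves the P14 against P0 values up, as in Ctsd from -0.42 to 0.09, and leaves A6m against P14 nearly in place.

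Between P14 and 6 months, 11 of 19 tested pump genes rose, and 6 of 11 tested cathepsins fell. Of the 34 genes, 13 rose and 6 fell, where 8.78% of all tested genes rose and 12.1% fell. After scaling 20 rose and 6 fell, against 15.2% and 14%. The 13 rises and 6 falls were called on both scales, and no gene was called in opposite directions. Of them, 5 rises (Atp6ap2, Atp6v0c, Atp6v0e2, Atp6v1a and Ctsb) and 4 falls (Ctsf, Ctsh, Ctsk and Ctsl) were called in all 12 fits without one library. The number of members called higher was 5 without P14 replicate 1 or P14 replicate 2, 7 without P14 replicate 3, and 6 without A6m replicate 1 or A6m replicate 3. The number called lower was 4 without P14 replicate 1, P14 replicate 3, A6m replicate 1 or A6m replicate 2.

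In the pump, 11 of 19 tested genes rose and none fell, 6 of 9 in V1, 3 of 7 in V0 and 2 of 3 accessory genes. Atp6ap2 was at 187, 164 and 179 TPM at P14 and at 270.1, 263 and 279 TPM at A6m (log2 0.62, SE 0.133, adjusted p = 0.00769). Atp6v1a reached 172, 173 and 177 TPM at A6m, above all P14 libraries (log2 0.46, SE 0.0765, adjusted p = 0.00165). Atp6v0c, the subunit of the proton-carrying ring, went from 229, 225 and 229 TPM to 299.9, 278 and 301 TPM (log2 0.36, SE 0.0860, adjusted p = 0.0122). Atp6v0e2 was at 2.21, 3.74 and 2.86 TPM and then at 5.39, 5.29 and 6.65 TPM, against 7.23 ± 1.56 TPM at E12.5 (log2 0.80, SE 0.177, adjusted p = 0.00866). Atp6v1c1, a V1 stator subunit, rose from 51.7 ± 4.67 to 70.0 ± 2.81 TPM (log2 0.43, adjusted p = 0.0446), a call lost in 9 of the 12 fits without one library.

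Of 11 tested cathepsins, 2 rose and 6 fell into A6m, and 3 rose and 6 fell after scaling. Ctsb (chr14:63122462-63145923, plus strand), an endopeptidase and dipeptidase, rose from 222, 214 and 238 TPM to 306, 289 and 312 TPM (log2 0.43, SE 0.0913, adjusted p = 0.00694). Ctsl fell from 327, 289 and 327 TPM to 186, 176 and 176 TPM (log2 -0.80, SE 0.0738, adjusted p = 3.15e-05). Both are cysteine endopeptidases of the lysosome. Ctsh fell further to 25.3, 22.3 and 27.4 TPM (log2 -1.08, SE 0.120, adjusted p = 1.16e-04). Ctsk fell from 10.9, 8.90 and 11 TPM to 3.57, 3.74 and 5.62 TPM (log2 -1.10, SE 0.156, adjusted p = 6.15e-04), and Ctsf from 48.3 ± 1.24 to 32.9 ± 1.36 TPM (log2 -0.54, SE 0.0784, adjusted p = 6.93e-04). Ctso and Ctsc also fell, by 0.38 and 0.35, with adjusted p of 0.0336 and 0.0397 and calls lost in 4 and 9 of the 12 fits without one library. Ctsd was not called, with 902 ± 41.3 and 976 ± 26.9 TPM.

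Markers of other cell types changed beside these cathepsins, and their part in the changes was not tested. Erythroid markers summed to 30204 to 42312 TPM at E12.5 and to 26.6 to 46.9 TPM at P0, and all 7 fell on both scales. All 6 endothelial markers fell in every step between successive ages on both scales. Their sum went from 270 ± 17.8 TPM at E12.5 to 18.1 ± 2.90 TPM at A6m. The part of either list in the comparisons with E12.5 was not tested. In order of age, the sum of fibroblast markers was 1003 to 1337, 581 to 599, 264 to 309 and 166 to 237 TPM, and 4 of 6 fell between P14 and A6m. The list was not uniform, and the collagens Col1a1, Col1a2 and Col3a1 fell over the whole span. Dcn, a matrix proteoglycan, was instead higher at A6m (114 ± 18.8 TPM) than at E12.5 (43.9 ± 9.84 TPM). Pdgfra, a receptor of platelet-derived growth factors, rose into P0 from 54.8 ± 10.9 to 125 ± 0.787 TPM. Macrophage markers summed to 225 to 305 TPM at E12.5 and to 37.8 to 63.8 TPM at A6m, and 5 of 12 fell between P14 and A6m while 7 were not called. Ctss was at 18.0, 15.2 and 30.9 TPM in the A6m libraries, in which macrophage markers summed to 40.7, 37.8 and 63.8 TPM, so that A6m replicate 3 was highest in both. The difference of Ctss from P14 was not called as deposited (log2 0.62, adjusted p = 0.0523) but was after scaling (log2 0.67, adjusted p = 0.0326). Over the whole span Ctss was not called as deposited (log2 0.03, adjusted p = 0.905) and was higher after scaling (log2 0.84). Neutrophil granule markers summed to 9.75 to 14.9 TPM at E12.5, to 88.0 to 106 TPM at P0, to 4.57, 6.50 and 82.8 TPM in the P14 libraries and to 0.738 to 1.62 TPM in adults. Mast cell markers summed to 14.8 to 30.1, 55.3 to 60.2, 15 to 15.2 and 6.27 to 7.37 TPM over the ages in order. Both sums were thus higher at P0 than at E12.5, as were Ctss, Ctsh and Ctsc. That rise was not particular to these 3, since 9 of 11 tested cathepsins rose into P0 (11 scaled). The mast cell sum was lower again at P14, as were Ctss and Ctsh. Of the 11 cathepsins, 7 fell into P14 as deposited, and Ctss and Ctsh alone after scaling. Few genes carried these marker sums. Kit made up most of the mast cell sum, at 22.0 ± 7.78, 47.7 ± 2.70, 11.4 ± 1.02 and 6.27 ± 0.556 TPM in order of age. S100a8 (43.1 ± 7.20 TPM) and S100a9 (46.9 ± 2.36 TPM) made up nearly all of the granule sum at P0. Of 4 tested granule markers, 2 rose into P0 and 1 fell on both scales, namely Prtn3, from 8.63 ± 1.42 to 0.417 ± 0.316 TPM. Markers of cytotoxic lymphocytes were too low to be tested.

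Over the whole span from E12.5 to A6m, 24 of the 34 genes were higher and 4 lower, where 15.2% of all tested genes were higher and 62.0% lower. After scaling 31 were higher and 2 lower, against 35.4% and 35.8%. This comparison shares its libraries with the steps above and is not independent of them. The medians were 0.55 and 1.39. In the pump 15 of 19 tested genes were higher, 8 of 9 in V1 and 5 of 7 in V0, and 18 of 19 after scaling. Atp6ap2 had the largest difference, at 65.9 ± 16.8 and 271 ± 8.43 TPM, or 4.11-fold (log2 2.05, SE 0.133, adjusted p = 8.88e-08). Ctsd was 2.73-fold higher (log2 1.47), Lamp2 2.57-fold (1.37), Atp6v1a 2.40-fold (1.26), Atp6ap1 2.31-fold (1.2) and Ctsf 2.35-fold (1.18), all with adjusted p of 4.18e-07 or less. Of these, Atp6ap2, Atp6ap1 and Lamp2 are X-linked.

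The genes lower at A6m than at E12.5 on both scales were Ctsk and Ctsh. Ctsk was at 11.7, 15.6 and 14 TPM and at 3.57, 3.74 and 5.62 TPM (log2 -1.49, SE 0.156, adjusted p = 4.59e-06, and -0.73 after scaling), and Ctsh at 57.2 ± 9.73 and 25 ± 2.53 TPM (log2 -1.15, SE 0.120, adjusted p = 4.21e-06, and -0.32 after scaling). Atp6ap1l was lower as deposited (log2 -0.98, adjusted p = 0.00590) and not called after scaling (adjusted p = 0.274). Lamp1 was lower as deposited by 0.18 and higher by 0.67 after scaling, so that its direction is set by the scale. Without E12.5 replicate 1, 9 members were called lower in place of 4.

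Ratios between these genes within a library do not depend on the scaling between libraries. The cathepsin sum over the pump sum was 0.666 ± 0.0148, 1.22 ± 0.0408, 0.925 ± 0.0120 and 0.729 ± 0.0170 over the ages in order, with no overlap between any 2 ages. The V1 sum over the V0 sum was 1.25 ± 0.0586, 1.25 ± 0.0150, 1.26 ± 0.0412 and 1.33 ± 0.050, with overlap between all ages but P0 and A6m. The balance of the cathepsins changed more. Ctsl over Ctsb was 0.582 ± 0.0566, 1.73 ± 0.0527, 1.40 ± 0.0690 and 0.593 ± 0.0255 over the ages in order, so that the A6m and E12.5 ranges overlapped. Ctsh over Ctsb was 0.463 ± 0.050 at P0 and 0.0825 ± 0.00521 at A6m. Ctsd took 35.3% ± 2.06 of the cathepsin sum at E12.5 and 49.9% ± 0.749, 46.7% ± 0.167 and 51.6% ± 0.658 at the later ages. With 3 libraries against 3, an exact permutation test of a single ratio cannot go below p = 0.1, and no such p is given.

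**Figure D4:**
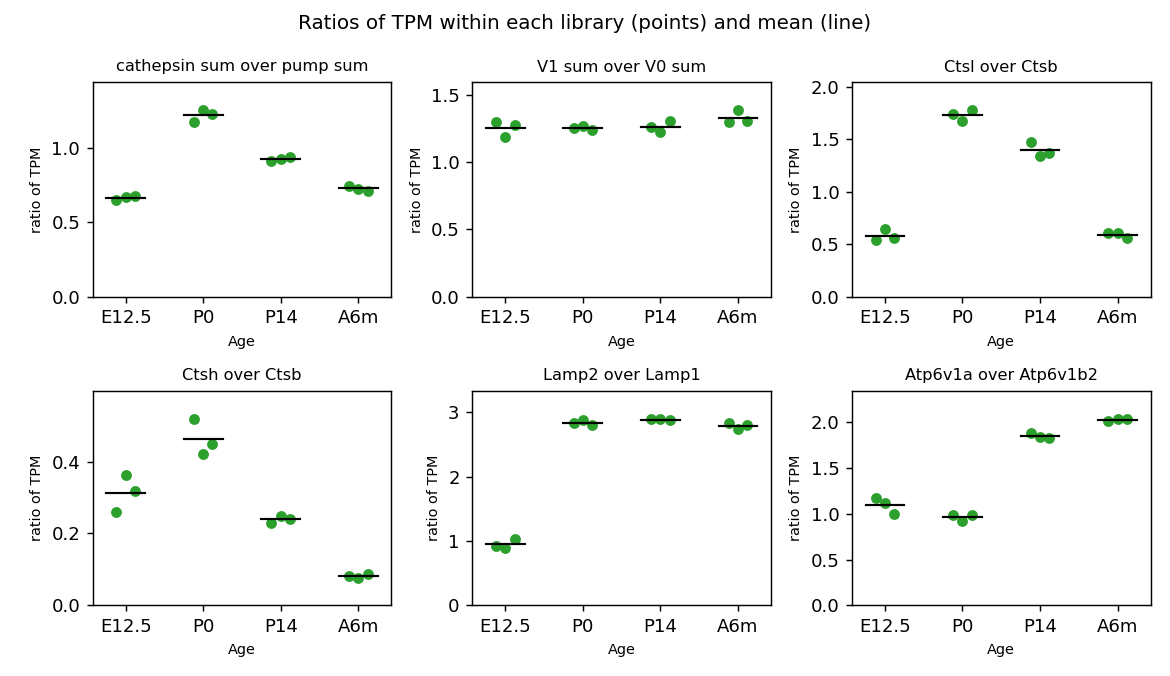
Ratios of TPM within each library (y axis, linear from 0; points) at the 4 ages (x axis), with the mean as a line. The cathepsin to pump ratio peaks at 1.22 at P0, the Ctsl to Ctsb ratio returns at A6m to 0.593, near 0.582 at E12.5, and the Lamp2 to Lamp1 ratio steps up once, from 0.950 to 2.84.

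Other genes of the lysosome were counted from lists of their functions. Of 32 hydrolases, 21 rose and 5 fell into P0, 3 rose and 15 fell into P14, and 5 rose and 6 fell into A6m. The shares of all tested genes called higher and lower were 18.6% and 43.7%, 5.33% and 53.5%, and 8.78% and 12.1% for these steps, and the hydrolase count into P14 lies near them. After scaling the counts were 25 and 2, 19 and 4, and 12 and 6. Over the whole span 17 were higher and 8 lower (27 and 2 scaled), where 15.2% and 62.0% of all tested genes were (35.4% and 35.8% scaled), shares against which the counts of the next lists stand as well. Ids, the iduronate sulfatase, was at 30.2 ± 6.73 and 155 ± 4.93 TPM, Fuca1, a fucosidase, at 47.3 ± 6.05 and 140.0 ± 8.52 TPM, and Arsa, which removes sulfate from sulfatide, lower at 15 ± 1.27 and 4.41 ± 0.381 TPM. Of 22 tested genes of lysosomal membrane and transport, 9 were higher at A6m than at E12.5 and 5 lower (18 and 2 scaled). Psap, the precursor of the saposins that present lipids to hydrolases, was at 242 ± 33.4 and 1545 ± 73.8 TPM (log2 2.68), Gm2a, the activator of ganglioside breakdown, at 14.3 ± 1.92 and 68.4 ± 2.41 TPM and Mcoln3, a relative of Mcoln1, at 1.85 ± 0.537 and 15 ± 2.03 TPM.

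The genes that assemble or regulate the pump did not move as one group. Of 11 tested, 2 were higher at A6m than at E12.5 and 5 lower (7 and 1 scaled). Dmxl2, a subunit of the complex that reassembles V1 with V0, was at 10.3 ± 3.40 and 50.8 ± 1.42 TPM (log2 2.24), while Ncoa7, a protein that interacts with V1, was lower at 12.4 ± 0.946 and 4.33 ± 0.512 TPM (log2 -1.33). Tcirg1 was lower as deposited at 24.9 ± 5.68 and 10.4 ± 3.21 TPM (log2 -1.19) and not called after scaling (adjusted p = 0.127). Of 11 tested genes of delivery to the lysosome, 1 was higher and 7 lower (6 and 3 scaled), close to the 62.0% lower over all tested genes. The endocytic receptor Lrp2 was at 13.7 ± 0.796 and 0.410 ± 0.0684 TPM, the sorting adaptor Gga3 at 22.4 ± 5.55 and 6.92 ± 1.32 TPM, and Gnptg, which takes part in adding the mannose phosphate tag, was higher at 25.3 ± 3.23 and 55.0 ± 0.848 TPM.

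Tfeb's relatives and the machinery that holds it at the lysosome gave counts that turned with the scale. Of 17 genes, 3 were higher and 11 lower at A6m than at E12.5 as deposited, and 13 higher and 3 lower after scaling, with 7 called in opposite directions. The deposited counts lie near the 15.2% higher and 62.0% lower over all tested genes, against 35.4% and 35.8% after scaling. Rragd, a GTPase that recruits mTORC1 and Tfeb, was higher on both scales, at 18.8 ± 3.72 and 70.6 ± 1.42 TPM (log2 1.87). Tfec, a relative of Tfeb, was lower on both, at 3.04 ± 0.504 and 0.0972 ± 0.0372 TPM, and Fnip2, a partner of folliculin, at 7.76 ± 0.717 and 2.21 ± 0.0951 TPM. Among cystatins, the inhibitors of cysteine cathepsins, 5 of 10 could be tested. The secreted Cst3 was at 264 ± 10.4 and 867 ± 34.5 TPM (log2 1.71), and the cytosolic Cstb, at 122 ± 8.39 and 93.5 ± 3.97 TPM, was lower as deposited (log2 -0.38) and higher after scaling (log2 0.47).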

How the data were processed

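Libraries were made from Trizol-extracted total RNA with a Kapa mRNA kit, per the labels' protocols. The authors deposited TPM per gene symbol, made with kallisto on GRCm38 per the submitters' processing notes. Neither its version nor the annotation nor how transcripts were summed to symbols is given in the sources used here. Of the table's columns, 12 were mapped to the 4 ages by name, and 7 further columns were not used. The TPM cannot give depth, so no count model, interval or detection floor was applied.

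Genes that reached a TPM of 1 in 3 or more of the 12 libraries were tested with limma 3.58.1 in R 4.3.3 on log2(TPM + 1). The fit had 4 group means, 8 residual degrees of freedom and an intensity-dependent prior, and adjusted p under 0.05 was called. The fit was tested on simulated data. Per comparison, full statistics are for the 6 largest rises and 6 largest falls of called members whose higher mean reached 5 TPM and whose libraries did not overlap between ages, and the wider lists give the 3 largest called differences between A6m and E12.5. Other members named were chosen with their values seen. The members and lists were chosen with earlier results of these data known. Scaling was median-of-ratios over the 19075 genes above 0 in every library. Other alternatives were offsets of 0.1 and 5, testing without a filter or from a mean of 5 TPM, removal of the 10 most abundant genes before rescaling, fits to the 6 libraries compared, the replicate number as a block, and each library left out.

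Coordinates and overlaps are from GENCODE M21, where all 47 symbols matched, and promoters from RefSeq on GRCm38.p6. Among tested members, 0 shared all their values with another symbol. Plots used matplotlib 3.10.9 in Python 3.11.15.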

Additional observations from a re-analysis of the deposited data

How the results depend on the processing

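Of the 86 calls of single members over the 4 comparisons, 86 kept their direction and threshold with an offset of 0.1 and with one of 5, 82 with only the 6 libraries compared, 75 without a filter, 74 without the 10 most abundant genes and 73 after median-of-ratios scaling. Median-of-ratios scaling gave 20 members higher at A6m than at P14 in place of 13, 25 members higher at P14 than at P0 in place of 4, 2 lower at P14 than at P0 in place of 12, 2 lower at A6m than at E12.5 in place of 4, and 1 lower at P0 than at E12.5 in place of 2. Without the 10 most abundant genes, these counts of members were 11 higher and 3 lower at P14, 2 lower at A6m than at E12.5 and 1 lower at P0. Without a filter, 8 members were higher at A6m than at P14 and 4 lower at P0 than at E12.5. With a mean of at least 5 TPM, 1 member was lower at P0. With only the 6 libraries, 7 members were higher at P14 and 1 lower at P0. Scaling changed the sign of 8 falls of members into P14. Of these, 5 were then called higher, at 0.29 in Atp6v0d1, 0.27 in Atp6v1g1, 0.23 in Ctsa, 0.28 in Ctsl and 0.22 in Ctsz. The others were not called after scaling, at 0.11 in Atp6v0a1, 0.072 in Atp6v1b2 and 0.091 in Ctsd. The fall of Lamp1 from E12.5 to A6m also turned, to 0.67 (0.30 without the 10 most abundant genes). The scaling is built to bring the median gene to 0, and which scale is closer to RNA per cell was not tested, nor was the cause of the other shifts. Leaving out one library gave 5 to 16 members higher and 4 to 6 lower at A6m than at P14, 3 to 6 higher and 8 to 16 lower at P14 than at P0, 3 to 9 lower and 23 or 24 higher at A6m than at E12.5, 1 to 5 lower and 21 to 26 higher at P0 than at E12.5, and 31 to 33 members differing over the ages. No call turned direction, and 19 of the 86 were lost at least once. With the replicate number as a block, members higher were 22, 4 and 12 and members lower 2, 12 and 6 over the 3 successive steps, 24 were higher and 5 lower over the whole span, and 31 members differed over the ages. The block lost 3 calls at A6m against P14, Atp6v0d1 (adjusted p = 0.0554), Atp6v1c1 (0.0537) and Atp6v1e1 (0.0510). Same-numbered libraries did not deviate together (Pearson's r across genes of -0.0778 to 0.108 over 18 pairs, 1 above 0.1), so the numbers were not taken to pair the samples. Depth is unknown and limits the low members most.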
